A study of Homo sapiens with 6 samples.

Results

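LMO1, LIN28B, BARD1 and HACE1 are 4 genes linked to inherited susceptibility to neuroblastoma, and the peaks of 3 transcription factors around them were described here. A peak was counted for a gene when its summit lay in the gene body or within 50 kb of it, with gene positions from RefSeq (GRCh38). The 4 genes, of 19974 protein-coding genes placed, took 51 of the 118064 peaks in the series. The cells were SK-N-BE(2), an established human neuroblastoma line with amplified MYCN, and the labels name no treatment. CUT&Tag, which tags DNA next to an antibody-bound protein, was run with antibodies to HAND2 (2 libraries), MEIS2 (2 libraries) and TCF4 (1 library), and with IgG as control, for which no peak list was used. HAND2 and TCF4 are bHLH factors that bind E-box sequences, and MEIS2 is a homeodomain factor of the TALE class. Whether replicates were separate cultures is not given in the labels, and the TCF4 values have no replicate check. All data come from this single line. All 13876 peak names of MEIS2 replicate 2 carry the word Flag, while its labels name the same antibody as replicate 1.

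The genes act at different levels. LMO1 encodes a LIM-only protein that binds no DNA itself and bridges bHLH, GATA and LDB1 proteins on chromatin, and in neuroblastoma it is an oncogene with a known enhancer inside the gene. LIN28B encodes an RNA-binding protein that blocks maturation of let-7 microRNAs. BARD1 is the partner of BRCA1 in a ubiquitin ligase used in DNA repair, and HACE1 is a ubiquitin ligase that targets active RAC1 and acts as a tumour suppressor.

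LMO1 stood apart from the other genes in the number of sites. It held 11 HAND2 regions, meaning spans with a peak in both HAND2 replicates, against 0 at LIN28B, 0 at BARD1 and 0 at HACE1. It also held 11 TCF4 peaks, against 2, 1 and 1 at the other genes in the same order. A HAND2 region was present at 1 of the 4 genes, against 55.8% of all protein-coding genes, and a TCF4 peak at 4 of 4, against 76.0%. Counted by library, HAND2 replicate 1 had a peak at 1 of the 4 (60.2% of all genes), HAND2 replicate 2 at 2 (64.7%), MEIS2 replicate 1 at 2 (39.3%) and MEIS2 replicate 2 at 2 (29.8%). No MEIS2 region of both replicates was present at any of the 4, against 9.39% of all genes. At least 11 HAND2 regions were found at 594 genes (2.97%), whereas the 11 TCF4 peaks of LMO1 were reached or passed by 10.3% of genes. Windows differ in length with the gene, and LMO1 has the shortest at 144 kb, against 184 to 246 kb for the others. Per 100 kb the LMO1 window held 7.61 HAND2 regions, and 2.23% of genes were as dense.

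**Figure D1:**
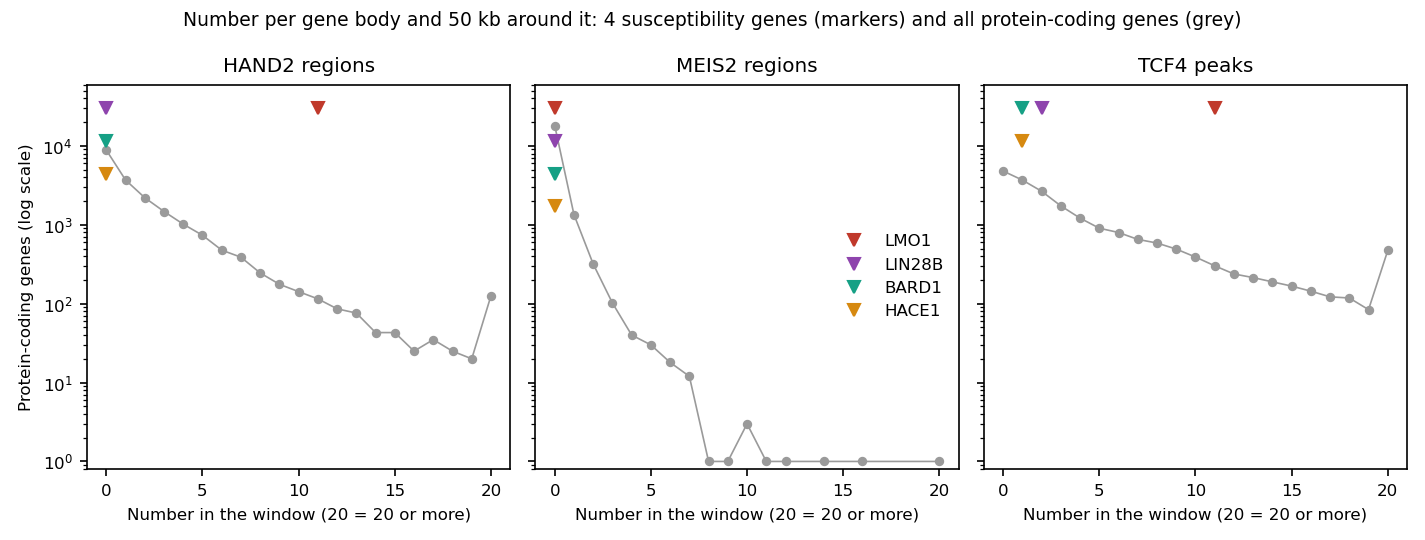
Number of HAND2 regions, MEIS2 regions and TCF4 peaks (x axis) in the gene body and 50 kb around it, with the number of protein-coding genes on a log y axis. Grey points are all 19974 genes and coloured triangles the 4 susceptibility genes, whose height carries no value; LMO1 lies at 11 for HAND2 and 11 for TCF4, while the others lie at 0 for HAND2 and at 1 or 2 for TCF4.

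TCF4 was found at a transcription start of every one of the 4 genes, and HAND2 at that of LMO1 alone. RefSeq promoter windows, from 250 bases before to 50 after a start, were matched for 4 of 4 genes. A TCF4 peak overlapped such a window at 52.8% of the 15812 genes that have one, a HAND2 region at 16.4%, a MEIS2 replicate 1 peak at 9.88%, a MEIS2 replicate 2 peak at 1.18% and a MEIS2 region at 0.847%. Among the 4 genes these windows met TCF4 at 4, a HAND2 region at 1 (LMO1), MEIS2 replicate 1 at 1 (LIN28B) and MEIS2 replicate 2 at none. The 250 bases before the start that carried a peak are shown for each gene, as RefSeq gives them for GRCh38.p14, 5′ to 3′ on the gene's strand. Capitals mark matches, on either strand, to CANNTG, the pattern of any E-box, or to TGACAG, a core of TALE sites. The specific E-boxes given below are cases of the first pattern.
LMO1, chr11:8268788-8269037, minus strand: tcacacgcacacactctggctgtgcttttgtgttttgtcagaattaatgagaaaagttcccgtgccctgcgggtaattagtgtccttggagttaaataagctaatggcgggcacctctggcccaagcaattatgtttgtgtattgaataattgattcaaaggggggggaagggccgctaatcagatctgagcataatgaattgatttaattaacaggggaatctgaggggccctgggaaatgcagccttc
LIN28B, chr6:104940715-104940964, plus strand: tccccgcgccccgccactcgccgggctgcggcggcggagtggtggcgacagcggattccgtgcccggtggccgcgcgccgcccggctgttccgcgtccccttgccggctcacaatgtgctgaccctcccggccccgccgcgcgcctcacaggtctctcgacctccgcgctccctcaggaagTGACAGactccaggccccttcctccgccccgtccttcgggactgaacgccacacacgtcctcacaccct
BARD1, chr2:214809684-214809933, minus strand: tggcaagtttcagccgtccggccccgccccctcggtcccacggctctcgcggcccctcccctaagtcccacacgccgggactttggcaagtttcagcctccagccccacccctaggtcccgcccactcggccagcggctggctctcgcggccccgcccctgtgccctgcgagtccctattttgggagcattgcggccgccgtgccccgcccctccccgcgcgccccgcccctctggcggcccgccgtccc
HACE1, chr6:104859920-104860169, minus strand: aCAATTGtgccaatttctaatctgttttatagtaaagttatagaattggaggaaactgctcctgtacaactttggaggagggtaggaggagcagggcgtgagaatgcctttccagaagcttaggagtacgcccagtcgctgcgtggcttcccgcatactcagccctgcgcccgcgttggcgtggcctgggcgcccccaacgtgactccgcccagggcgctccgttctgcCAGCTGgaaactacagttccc

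The LMO1, LIN28B and BARD1 windows held no E-box, although 58.1% of 22130 such windows of protein-coding genes hold at least 1. At LMO1 and BARD1 the summits lay outside the 250 bases searched. They were at -355 and -304 (HAND2) and 54 bp inside the gene (TCF4) for LMO1, and at -337 (TCF4) for BARD1. The sequence at those summits was not searched. The HACE1 window shown held a CAATTG from -249 to -244 and a CAGCTG from -21 to -16, counted from the start, and CAGCTG is found in 13.7% of windows. The TCF4 peak, which ends at 104859987, covers the CAGCTG and not the CAATTG. LIN28B held a TGACAG from -69 to -64, a match present in 12.1% of windows, and the MEIS2 replicate 1 summit lay at -36 and the TCF4 summit at -103. The E-box CATCTG, present in 10.2% of all windows, was in none of those shown. The same held for CAGGTG, which 17.1% of all windows hold. A second RefSeq start of LIN28B, at 104957107, had the E-box CACGTG (7.37% of all windows) from -47 to -42, and no library had a peak over its window. HACE1 also has a second RefSeq start, 373 bp further in, which the same TCF4 peak overlaps. The TCF4 summit, at -220 from that second start, lies inside the 250 bases before it and outside those shown, and none of the motifs searched was in those 250 bases. These are matches of letters in 250 bases and not measured sites.

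Base composition differed among the starts. The LMO1 window was 45.6% G or C, and 15.1% of windows were as low, while BARD1 reached 75.2%, LIN28B 73.6% and HACE1 56.0%, beside a median of 62.0%. Over all windows, split by GC content into 3 groups of like size, TCF4 peaks overlapped 14.7% in the lowest, 55.2% in the middle and 75.8% in the highest. The BARD1 and LIN28B windows lie in the group where most windows have TCF4, and the LMO1 window lies in the group where few do. The HACE1 window shown lies at the border of the lowest and middle groups, whereas that of its second start, which holds the TCF4 summit, is 75.2% G or C and lies in the highest.

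LMO1 lies on chromosome 11 from 8224309 to 8268787 on the minus strand, and distances are given from its 5′ end at 8268787, positive along the gene. Peaks of all libraries in its window were joined where they overlapped by at least 1 bp, which gave 17 places. HAND2 had a peak in both replicates at 11 of them, TCF4 accompanied HAND2 at 8 of these, and MEIS2 replicate 1 at 3. The remaining 6 were 2 with TCF4 and no HAND2 and 4 with a single HAND2 replicate, of which 1 also had TCF4. Every fold below is the authors' own value, fragments piled up at the summit over the local background. Its exact 95% Poisson interval covers counting error of the pile-up only. The background was held fixed, so its own error is left out and the intervals are too narrow where few IgG fragments were present. Folds of different libraries are not on a common scale, so sites are ranked by fold within each list. The gene table used gives no exons or introns.

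The strongest HAND2 site of LMO1 lay in the gene body, 9.93 kb from the 5′ end. Its fold was 16.7 (13.8 to 20.1) in HAND2 replicate 1 and 13.7 (11.2 to 16.6) in HAND2 replicate 2, and both summits fell on base 8258854. These peaks ranked 1925 of 30410 and 2506 of 33484 in their lists. TCF4 had a fold of 5.71 (4.10 to 7.75) there, with rank 12698 of 30704 and its summit 455 bp away, and neither MEIS2 library had a peak. The span from 8257354 to 8260057 was thus among the top 6.33% and 7.48% of HAND2 peaks and within the top 41.4% of TCF4 peaks.

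TCF4 was strongest further into the gene, 25.7 kb from the 5′ end, with a fold of 47.3 (44.1 to 50.7) on a summit pile-up of 811 fragments. This peak ranked 142 of 30704. Over all genes, 1.06% had a TCF4 peak as high in their window. HAND2 had folds of 9.83 (8.67 to 11.1) and 10.2 (9.10 to 11.4) in replicates 1 and 2 at the same span (8242004 to 8244813), and MEIS2 replicate 1 had 4.88 (3.59 to 6.50). The HAND2 and MEIS2 summits lay within 6 bp of each other at 8243726 to 8243732, and the TCF4 summit lay 595 to 601 bp from them. TCF4 and HAND2 thus shared a span here but not a summit.

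The widest site ran from 8228265 to 8235125, or 6861 bp, toward the 3′ end of LMO1. TCF4 had a fold of 29.4 (27.5 to 31.5) with rank 536, HAND2 had 9.63 (8.52 to 10.9) and 12.7 (11.4 to 13.99), and MEIS2 replicate 1 had 5.10 (3.77 to 6.74). The peaks of both HAND2 libraries and of TCF4 started at the same base, 8228265. The summits lay 34.4 to 34.6 kb from the 5′ end and within 250 bp of each other. The span contains the whole of LOC105376536, an uncharacterised lncRNA gene (8229881 to 8233019).

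The local background was raised at both of these shared sites. It came to 31 to 36 IgG fragments at the summits, except 20.6 for TCF4 at the 25.7 kb site, against medians over each list of 7 and 8 for HAND2, 10.8 for MEIS2 replicate 1 and 14 for TCF4. The fold already divides by this background. Without peaks of 30 or more IgG fragments LMO1 kept 8 HAND2 regions and 10 TCF4 peaks, and the HAND2 regions that overlapped TCF4 numbered 5 instead of 8. At the strongest HAND2 site the background was 7.16 to 7.67 fragments.

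Between these sites, 29.0 kb from the 5′ end, HAND2 had folds of 6.95 (5.20 to 9.12) and 8.85 (6.99 to 11.07), and TCF4 had 14.4 (11.9 to 17.3). A weaker site followed about 32 kb from the 5′ end, with 3.15 (2.08 to 4.598) and 3.58 (2.50 to 4.98) for HAND2 and no other factor. The 2 places with TCF4 and no HAND2 also lay in the gene body, with folds of 5.77 (4.41 to 7.41) at 18.2 kb and 4.08 (3.19 to 5.15) at 6.17 kb. Where a single HAND2 replicate had a peak, its fold was 2.14 to 2.73, near the lower end of its list. At 3.05 kb such a peak of HAND2 replicate 2, at 2.20 (1.56 to 3.02), had its summit 1 bp from a TCF4 summit of 2.998 (2.23 to 3.94).

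At the start of LMO1 itself HAND2 was weak, while TCF4 lay near the middle of its list. HAND2 had 2.36 (1.65 to 3.28) in replicate 1 and 3.13 (2.29 to 4.20) in replicate 2, with summits at -355 and -304, and TCF4 had 5.03 (3.86 to 6.43) at 54 bp inside the gene. The HAND2 peaks ranked 29252 of 30410 and 26732 of 33484, and the TCF4 peak 15159 of 30704. In HAND2 replicate 1, of 12 peaks in the LMO1 window, the site at -46.6 kb alone had a lower fold than the start. In HAND2 replicate 2, 4 of 14 peaks were lower than the start, with folds of 2.14 to 2.67.

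Upstream of LMO1 lay a pair of sites about 14 and 15 kb away with unlike partners. At the nearer one HAND2 had 4.29 (2.88 to 6.18) and 3.46 (2.28 to 5.04) and MEIS2 replicate 1 had 5.49 (3.17 to 8.96), all with summits within 6 bp, and TCF4 had no peak. At the farther one TCF4 had 11.4 (10.1 to 12.9), HAND2 had 4.26 (3.45 to 5.20) and 5.35 (4.51 to 6.31), and MEIS2 had none. The MEIS2 replicate 1 peak rested on a pile-up of 14 fragments. The outermost sites, at -46.6 kb, 62.3 kb and 75.7 kb, had HAND2 folds of 2.24 to 3.43, and TCF4 accompanied the first at 2.35 and the second at 4.10.

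**Figure D2:**
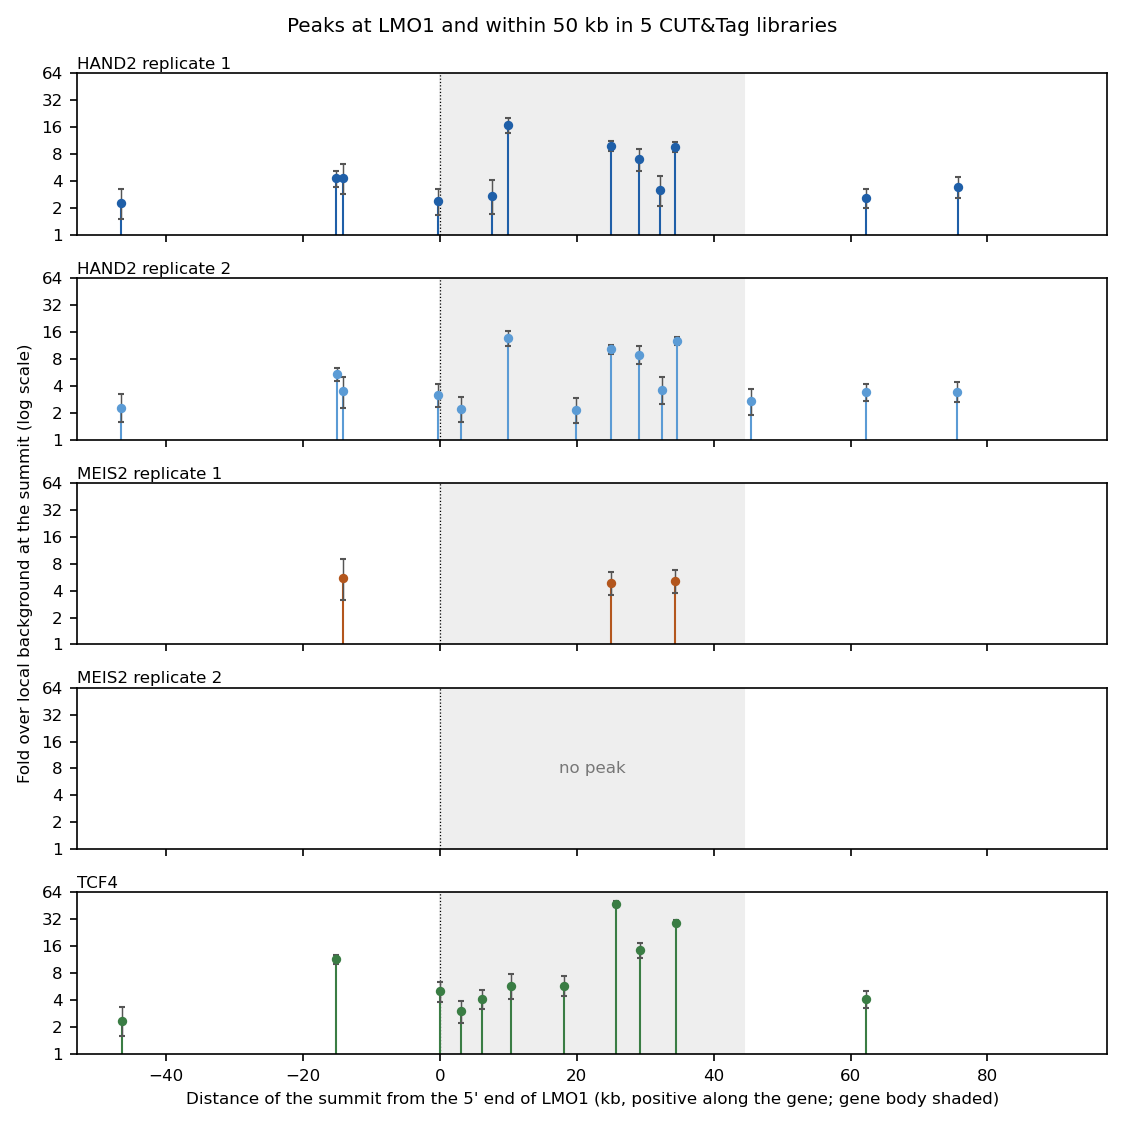
Fold over the local background (log y axis) of each peak against the distance of its summit from the 5′ end of LMO1 in kb (x axis), with 1 panel per library. Points are the authors' folds, bars are 95% counting intervals and the gene body is shaded; HAND2 is highest at 9.93 kb and TCF4 at 25.7 kb, and MEIS2 replicate 2 has no peak.

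Folds of the 2 HAND2 replicates were set side by side at the 11 LMO1 regions, which by definition hold a peak in both. The 4 LMO1 places with a single HAND2 replicate are left out here. Counting intervals of the 2 folds overlapped at 10 of 11 regions, and the ratio of replicate 1 to replicate 2 ran from 0.750 to 1.24. The exception was the widest site, with 9.63 and 12.7. Replicate 2 was higher at 9 of 11. This count and that of overlapping intervals were not set beside the share over all HAND2 regions, so they show nothing particular to LMO1. Summits lay a median of 51 bp apart and at most 331 bp, and over all overlapping HAND2 peaks the median was 49 bp. For MEIS2 replicate 1, the distance to the HAND2 replicate 1 summit was 3, 5 and 12 bp at the 3 LMO1 sites, where the median over 7754 overlapping peaks was 70 bp and 42.0% lay within 50 bp. To the HAND2 replicate 2 summit it was 3, 1 and 250 bp, beside a median of 76 bp over all overlapping peaks, so at the widest site the replicates gave unlike distances.

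**Figure D3:**
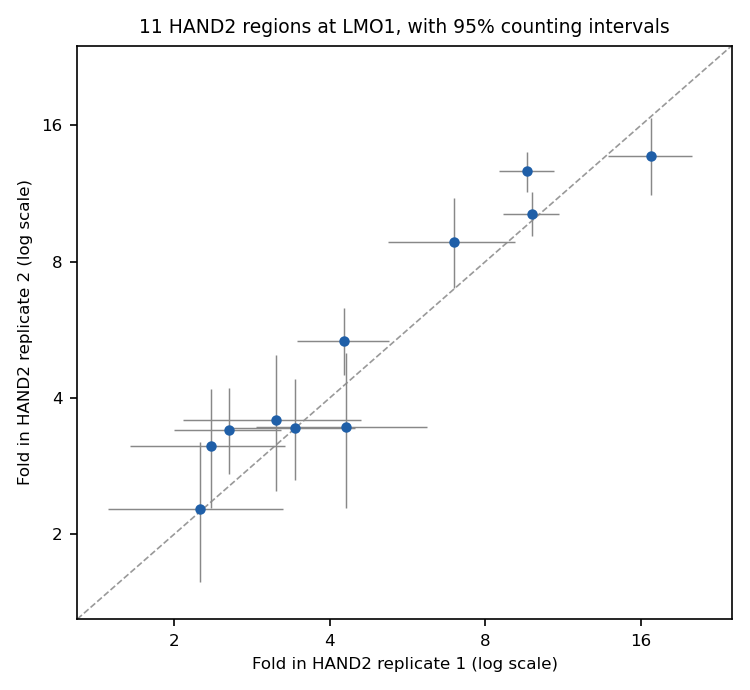
Fold in HAND2 replicate 1 (x axis) against fold in HAND2 replicate 2 (y axis), both on log scales, at the 11 HAND2 regions of LMO1, with 95% counting intervals and the line of equal fold dashed. The points run from about 2 to 17-fold along the line, and intervals were apart at the site with 9.63 and 12.7.

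Of the HAND2 regions at LMO1, 8 of 11 overlapped a TCF4 peak (72.7%, exact binomial 95% interval 39.0 to 94.0%), against 53.6% (52.9 to 54.2%) of the other 23293 HAND2 regions in the series. The interval includes the value of the other regions, so no difference in sharing was detectable with 11 regions, which are neighbours and not independent. MEIS2 replicate 1 overlapped 3 of 11 (27.3%, 6.02 to 61.0%), against 30.1% (29.5 to 30.7%) elsewhere. MEIS2 regions of both replicates overlapped 0 of 11, which allows a share of up to 28.5%, against 8.72% elsewhere.

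LIN28B lies on chromosome 6 from 104937026 to 105083332 on the plus strand. It had 2 TCF4 peaks, 1 MEIS2 replicate 1 peak, 3 MEIS2 replicate 2 peaks and no HAND2 peak in either replicate. The start whose sequence is given above, at 104940965, lies 3939 bp inside the gene as the gene table bounds it. TCF4 and MEIS2 replicate 1 met at this start, with folds of 4.48 (3.77 to 5.29) and 4.61 (3.41 to 6.10) and summits 67 bp apart. They ranked 17709 of 30704 and 6844 of 9595. The background there was 38 IgG fragments. On p alone, a HAND2 peak at this background would have reached the list at a fold of 1.71 in replicate 1 and 1.65 in replicate 2, if the control is shared.

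The other LIN28B peaks were weak or came from MEIS2 replicate 2. The second TCF4 peak, 54.4 kb into the gene, had 3.14 (1.74 to 5.31) on 12 fragments. MEIS2 replicate 2 had 9.07 (5.32 to 14.6), 6.23 (3.28 to 10.99) and 4.53 (2.16 to 8.74) at 115, 134 and 143 kb, on pile-ups of 15, 10 and 7. None of these places had a peak in another library, and all 3 stood on a background of 2.08 IgG fragments, which is also the median of that list. POPDC1, a gene for a membrane protein of muscle, is the sole other protein-coding gene that reaches into the LIN28B window, and no peak summit of any library lay within it there.

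BARD1, on chromosome 2 from 214725646 to 214809683 on the minus strand, had the strongest TCF4 peak of the 3 genes without HAND2 regions. Its fold was 9.63 (8.88 to 10.4) on a pile-up of 605 fragments, rank 5531 of 30704, and the summit at 214810020 lay at -337 from the start, between BARD1 and the lncRNA gene SNHG31 that begins at 214810229. The local background there was 79 IgG fragments, the highest of any peak at the 4 genes. HAND2 had no peak there. On p alone, and if the control is shared, it would have reached the list at 1.5001 and 1.448-fold in replicates 1 and 2. The only other BARD1 peak was in HAND2 replicate 2, 6.39 kb into the gene, with 4.83 (2.74 to 8.02) on 13 fragments. HAND2 replicate 1 had none there, although under the same conditions a fold of 3.45 would have been listed. A share of 32.02% of genes had a TCF4 peak as high as that of BARD1.

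HACE1, on chromosome 6 from 104728094 to 104859919 on the minus strand, had a single TCF4 peak, at its start. The fold was 4.56 (3.80 to 5.42) with rank 17398 of 30704, the summit 153 bp inside the gene and a background of 34 IgG fragments. HAND2 had no peak there. On p alone, and if the control is shared, 1.76 and 1.71-fold would have been listed in replicates 1 and 2. Beyond the 3′ end of HACE1, MEIS2 replicate 2 had 2 peaks 149 and 170 kb from the 5′ end, with folds of 13.0 (8.38 to 19.4) and 13.6 (8.83 to 20.1) on pile-ups of 22 and 23. They ranked 1225 and 1096 of 13871, on a background of 2.08 IgG fragments, which is also the median of that list. No other library had a peak there. Under the same conditions MEIS2 replicate 1 would have listed a fold of 3.96. HACE1 and LIN28B are neighbours with 77.1 kb between them, and no peak fell in the 22.9 kb that their windows share.

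**Figure D4:**
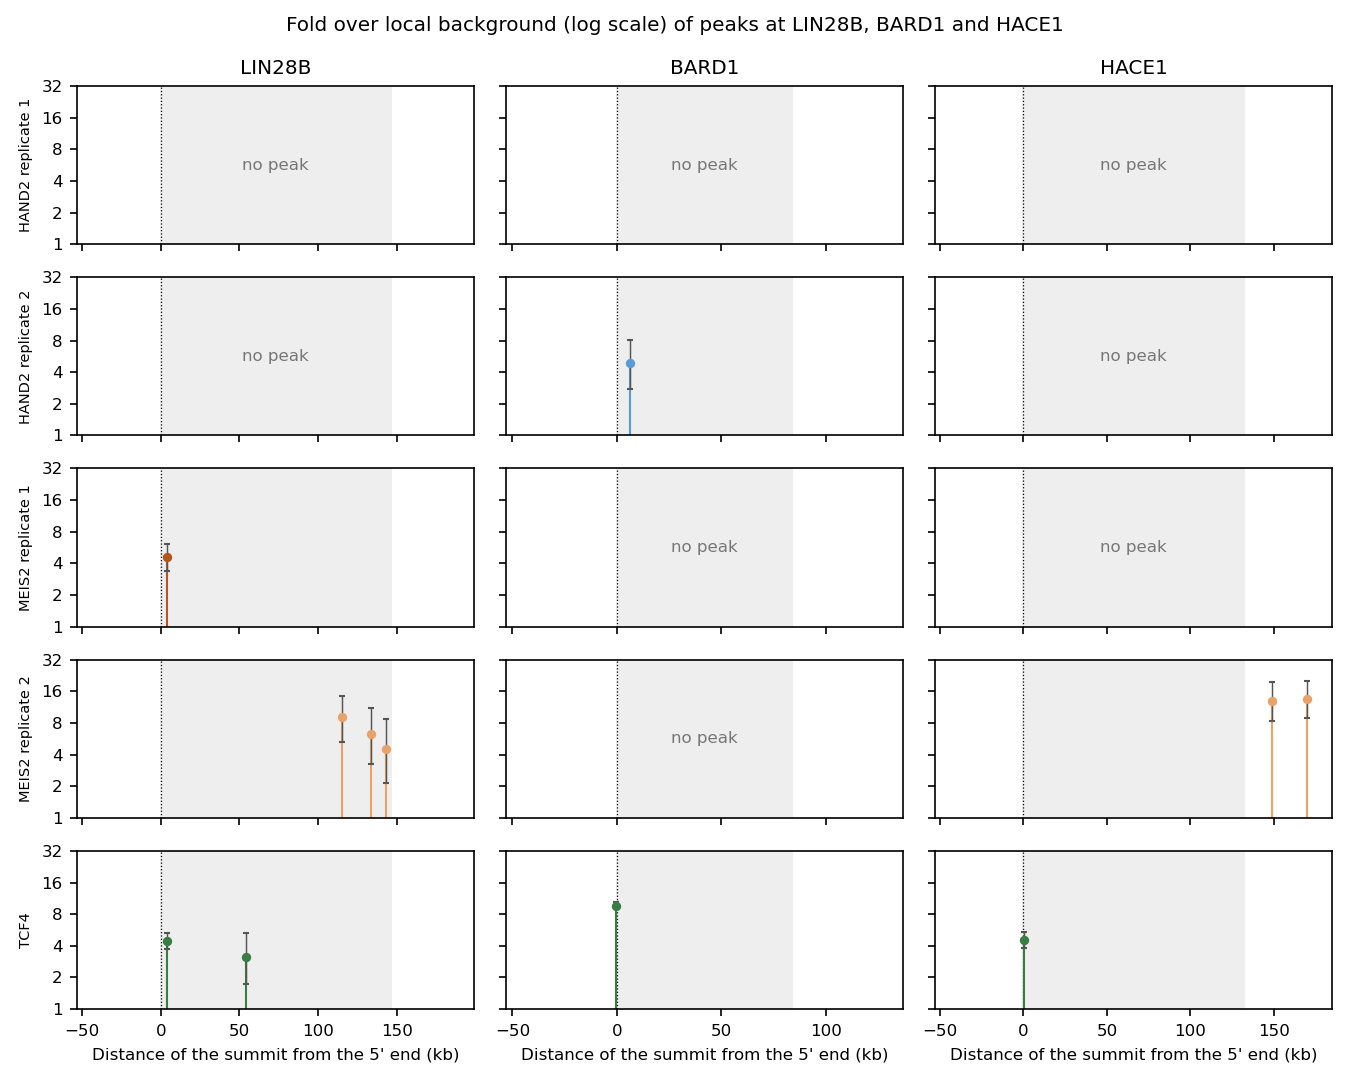
Fold over the local background (log y axis) of each peak at LIN28B, BARD1 and HACE1 against the distance of its summit from the 5′ end in kb (x axis), 1 row per library, with 95% counting intervals and the gene body shaded. TCF4 sits at or near the start of each gene, HAND2 is listed once, at BARD1 in replicate 2, and the peaks far from the starts are from MEIS2 replicate 2 apart from a TCF4 peak in LIN28B.

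The TCF4 peaks at the starts of LIN28B, BARD1 and HACE1 all had 34 or more IgG fragments, against a list median of 14, and none was left without peaks of 30 or more. The start of LMO1 had 14.5. Whether the raised control signal had a part in these calls was not tested.

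Genes with the nearest profile to each member were sought by the distance between log2 folds of the highest peak in the window over the 5 libraries, with a library lacking a peak set to a fold of 1. LMO1 was nearest to ALDH4A1 (0.35), TBC1D2B (0.41) and CASZ1 (0.43), a zinc finger gene, and LIN28B to GABPB1 (0.15), LAPTM4B (0.45) and MTDH (0.56). BARD1 was nearest to CCDC154 and CLCN7, at 0.03 with the same peaks, and FBXW2 (0.08). HACE1 was nearest to SNX19 (0.12), TLR6 (0.12) and CEP120 (0.18). With 5 values per gene many profiles lie close to each other.

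Partners and related genes of the 4 members were read in the same way, from lists chosen by function with earlier results of these data known. The LMO1 list also holds the LIM-only genes LMO2, LMO3 and LMO4, and MYCN. It had a HAND2 region at 11 of 16 genes and TCF4 at 13 of 16. That is 68.8% and 81.2% beside 55.8% and 76.0% of all genes, with a median of 4 HAND2 regions against 1. The medians were not divided by window length. LYL1, a bHLH gene, had the highest HAND2 site by the lower of the 2 replicate folds, the measure used for every list, with 16.3 and 15.7-fold in replicates 1 and 2, 16274 bp outside the gene. LMO2, a LIM-only gene like LMO1, followed at 15.7 and 13.7, 7608 bp outside. The strongest region of GATA3, chosen in the same way, had a higher replicate 1 fold than that of LYL1, at 19.2 with 12.8 in replicate 2. That of GATA2 had a higher replicate 2 fold, with 12.4 and 15.9 in replicates 1 and 2. GATA2 also had the highest TCF4 fold at 37.7, 8754 bp outside the gene. The HAND2 regions named lay 41746 bp outside GATA3 and 10649 bp outside GATA2. LMO1 itself had HAND2 folds of 16.7 and 13.7.

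Against the same 55.8% for HAND2 and 76.0% for TCF4 over all genes, the LIN28B, BARD1 and HACE1 lists had 57.9 to 66.7% and 78.9 to 100%. In the LIN28B and let-7 list HAND2 was at 11 of 19 genes and TCF4 at 15 of 19. ARID3B, a DNA-binding protein gene, led at 17.3 and 23.2-fold for HAND2 and 24.1 for TCF4. DICER1, which cuts microRNA precursors, followed for HAND2 at 17.2 and 8.27. The HAND2 sites lay in the bodies of both genes, and the TCF4 site 12449 bp outside ARID3B. The BARD1 list had HAND2 at 9 of 15 and TCF4 at 15 of 15. BABAM2 (9.62 and 11.6 for HAND2, 19.01 for TCF4) and UIMC1 (9.07 and 11.4), both of the BRCA1-A complex, were in front. Their HAND2 sites lay 13525 bp outside BABAM2 and 20865 bp outside UIMC1, and the TCF4 site 13540 bp outside BABAM2. The HACE1 list had HAND2 at 10 of 15 and TCF4 at 14 of 15. It was led by the small GTPase genes CDC42 (9.71 and 10.5) and RAC3 (7.03 and 8.90 for HAND2, 32.5 for TCF4). The HAND2 sites lay 7221 bp outside CDC42 and 39791 bp outside RAC3, and the TCF4 site 18357 bp outside RAC3. MEIS2 regions were at 3 of 16 genes of the LMO1 list, 1 of 19 of the LIN28B list, 1 of 15 of the BARD1 list and 3 of 15 of the HACE1 list, or 18.8%, 5.26%, 6.67% and 20%, against 9.39% of all genes.

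Other genes tied to neuroblastoma predisposition had HAND2 at 11 of 20, MEIS2 at 3 and TCF4 at 17, or 55%, 15% and 85%, against 55.8%, 9.39% and 76.0% of all genes. ALK, the receptor kinase gene, had 51 HAND2 regions, up to 80.3 and 55.5-fold, and the lncRNA gene CASC15 had 12, up to 41.5 and 33.8. LMO1 had 11 HAND2 regions. These counts are not per length. ALK runs from 29192774 to 29921586 and CASC15 from 21666413 to 22195820, so their windows are much longer than the 144 kb of LMO1. NF1, which restrains Ras, had the highest TCF4 fold at 74.0, at a site 48143 bp outside the gene. Sites within 50 kb may belong to neighbouring genes.

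**Figure D5:**
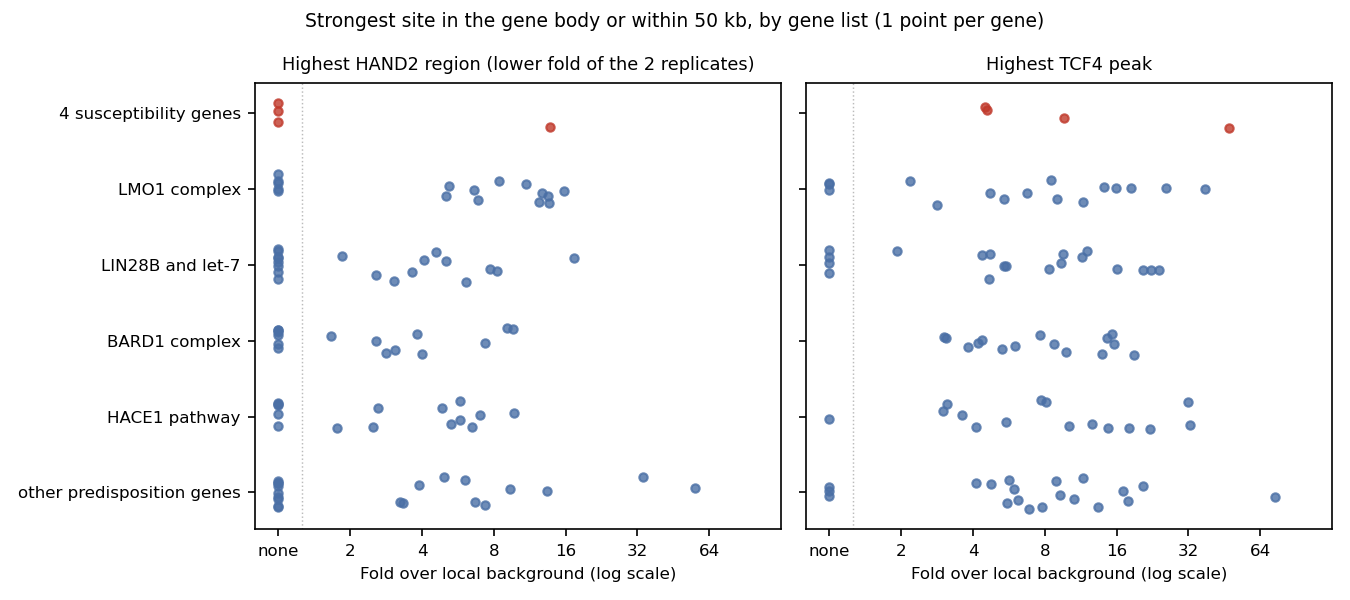
Fold (log x axis) of the strongest HAND2 region, as the lower of the 2 replicates, and of the strongest TCF4 peak in the gene body or within 50 kb, with 1 point per gene and 1 row per list; vertical position within a row carries no value. Of the 4 susceptibility genes LMO1 lies at 13.7 for HAND2 and 47.3 for TCF4, and the others have no HAND2 region and TCF4 folds of 4.48 to 9.63.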

How the data were processed

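Peak lists of 5 CUT&Tag libraries were used. The submitters' processing notes name MACS3 3.0.0a6, bcl2fastq 2.17, the build hg38 and Bowtie2, the last without a version. Each deposited list, called per sample, gives a fold (ratio of summit pile-up to local background), −log10 p and −log10 q, and a score of 10 times −log10 q, which was not used. Columns of fold per width, also deposited by the authors, were not used. The lowest −log10 q was 2.00 to 2.02. Only autosomes and X were kept, which dropped 3 and 5 MEIS2 peaks and 7 of TCF4.

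Lists held 30410 and 33484 (HAND2), 9595 and 13871 (MEIS2) and 30704 (TCF4) peaks. Summit pile-ups were read as the whole number that gave both fold and p within a relative tolerance of 5e-05, and were found for 100% of peaks. They had medians of 34 and 41, 22 and 13, and 60. Depth relative to IgG, from steps in the background, was 0.789 and 0.932, 0.248 and 0.368, and 0.784, so the MEIS2 lists are the shallowest. Dividing the background by that step gives the IgG fragments at a summit, a level and not a count. Intervals are exact 95% Poisson (folds) or binomial (shares), for counting error only, since reads may share a molecule. Those of folds hold the background fixed and cover the error of the pile-up alone.

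Regions are merged spans with peaks of both replicates (overlap of at least 1 bp), with the summit of the strongest peak. Steps were tested on simulated data. Groups and replicate numbers come from the sample titles. No test was made between groups. Genes named from a list are the 2 with the highest HAND2 region and the 1 with the highest TCF4 peak. The members and lists were chosen with earlier results of these data known. Sequences under peaks away from RefSeq starts were not used here. Computations used Python 3.11.15, scipy 1.17.1 and pandas 2.3.3.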

Additional observations from a re-analysis of the deposited data

How the results depend on the processing

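With at least 50% overlap of the shorter peak, −log10 q of at least 5, or windows of 25 or 100 kb, the 4 summed counts (11 HAND2 regions, 0 MEIS2 regions, 15 TCF4 peaks and 8 HAND2 regions with TCF4) stayed within 1.5 times. With the top 5000 peaks per list by −log10 q they were 3 HAND2 regions, 4 TCF4 peaks and 2 shared regions, and in gene bodies alone 5 HAND2 regions and 4 shared ones. Leaving out every peak on 30 or more IgG fragments gave 5 shared regions. A single HAND2 replicate gave 12 to 15 HAND2 peaks, with 8 to 9 shared, and a single MEIS2 replicate 4 to 5 MEIS2 peaks. For single genes with a count above 0, 21 of 33 alternatives stayed within 1.5 times; the counts of 0 are a floor and say little of stability. Of the 4 TCF4 peaks among the top 5000, 3 were at LMO1 and 1 at BARD1, and LIN28B and HACE1 had none there. In most of these alternatives fewer peaks or less sequence enter by construction. MEIS2 depth limits what its absence can show. No paired analysis was possible because the results come from no test.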

Other observations

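Relatives of the members, chosen after their values were seen, differed in HAND2. LIN28A, the paralogue of LIN28B, had 2 HAND2 regions within 50 kb, the stronger at 6.66 and 6.11-fold and 32404 bp outside the gene, whereas LIN28B had none. Among LIM-only genes, LMO4 had a HAND2 region in its body at 6.83 and 6.59-fold, a MEIS2 region of both replicates at 5.10 (lower fold) and a TCF4 peak at 15.9, while LMO3 had no HAND2 region, MEIS2 region or TCF4 peak. SSBP3, whose product binds LDB1, had 21 HAND2 regions and 17 TCF4 peaks, at up to 13.5 and 14.03-fold for HAND2 and 25.8 for TCF4. TAL1, MYC, HMGA2 and IGF2BP2 had no HAND2 region, MEIS2 region or TCF4 peak in their windows. Single replicates did have peaks at some of them. MEIS2 replicate 2 had 10.8-fold at HMGA2 and 4.32 at IGF2BP2, and HAND2 replicate 1 had 2.38 at MYC.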
